A study of Homo sapiens with 7 samples.

Results

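A1 is the interaction cluster that the authors gave to 3261 of the 46042 clustered 50 kb bins of the genome (7.08%, 163 Mb) from the Hi-C map of untreated DNMT1-AID cells. Its members were the bins inside the intervals named A1 in the deposited cluster list of that library. The table holds 57509 bins on 22 chromosomes, of which 11467 (19.9%) carry no cluster, including all of chromosome 13 and the part of chromosome 1 below 41.75 Mb. Because contacts of this 1 library chose the bins, the cluster names and codes are a description, while gene content, promoter sequence and the contacts of the other libraries were not used to choose them.

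The series holds Hi-C maps of 7 libraries from DLD-1, an established human colorectal adenocarcinoma line, to follow how nuclear organisation changes when DNA methyltransferases are lost. Every library carries DNMT1-AID, DNMT1 fused to a degron by which auxin leads to degradation of the protein. In 4 libraries the genotype is DNMT1-AID, untreated, given auxin for 4 d, given auxin for 10 d, or given auxin for 4 d followed by 4 d of washout. In 3 libraries, untreated, 4 d and 10 d of auxin, the cells are titled as a knockout of DNMT3B. The genotype label adds DNMT3b -/- for the 2 treated ones and gives only DNMT1-AID for the untreated one, which was grouped by its title. Each group holds 1 library, so differences between libraries have no replicate check. Depth ranged from 27345260 contacts after washout to 222645438 contacts at 4 d in DNMT1-AID cells.

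Chromosomes fold into compartments in which regions of like activity touch one another, also over long distances and between chromosomes. A compartments hold mostly active, gene-dense chromatin and B compartments mostly silent chromatin, and finer contact patterns divide both into subcompartments. In other human cells the name A1 stands for the most gene-rich, early replicating and highly transcribed type, which lies close to nuclear speckles, and A2 for active chromatin with longer genes. DNMT1 copies methylation of CpG onto new DNA and DNMT3B can add it anew, while CpG-dense promoters are mostly kept free of methylation.

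Promoter stretches of 6 genes in A1 show the range of CpG content that occurs in these bins. Each is the 250 bases before the gene's start in the RefSeq annotation of GRCh38.p14, written 5′ to 3′ with every CpG in capitals, and belongs to the member of its gene group that lies in the longest A1 run, among those whose promoter entry lies outside the annotated gene. The 6 groups were picked after their values were seen. KRT10 is a keratin of differentiated skin (chr17:40822615-40822864, minus strand), FOSB an immediate early transcription factor (chr19:45467746-45467995, plus strand), and POLR2A the largest subunit of RNA polymerase II (chr17:7484116-7484365, plus strand). ENO2 is the neuronal enolase of glycolysis (chr12:6914330-6914579, plus strand), RPL36 a protein of the cytosolic ribosome (chr19:5690045-5690294, plus strand), and MRPL54 a protein of the mitochondrial ribosome (chr19:3762432-3762681, plus strand).
KRT10: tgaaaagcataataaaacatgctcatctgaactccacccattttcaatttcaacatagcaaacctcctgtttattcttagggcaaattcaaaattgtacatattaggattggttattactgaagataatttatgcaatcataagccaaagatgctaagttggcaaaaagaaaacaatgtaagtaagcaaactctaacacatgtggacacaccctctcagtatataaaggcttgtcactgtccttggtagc
FOSB: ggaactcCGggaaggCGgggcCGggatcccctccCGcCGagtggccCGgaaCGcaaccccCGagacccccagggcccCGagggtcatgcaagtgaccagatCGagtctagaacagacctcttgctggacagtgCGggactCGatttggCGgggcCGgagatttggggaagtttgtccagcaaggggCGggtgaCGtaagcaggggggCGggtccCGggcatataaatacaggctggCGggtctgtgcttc
POLR2A: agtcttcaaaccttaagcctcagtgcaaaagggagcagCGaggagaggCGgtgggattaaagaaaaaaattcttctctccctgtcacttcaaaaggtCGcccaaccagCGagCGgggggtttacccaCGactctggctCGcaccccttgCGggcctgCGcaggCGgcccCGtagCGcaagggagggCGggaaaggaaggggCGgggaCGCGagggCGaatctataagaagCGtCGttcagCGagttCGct
ENO2: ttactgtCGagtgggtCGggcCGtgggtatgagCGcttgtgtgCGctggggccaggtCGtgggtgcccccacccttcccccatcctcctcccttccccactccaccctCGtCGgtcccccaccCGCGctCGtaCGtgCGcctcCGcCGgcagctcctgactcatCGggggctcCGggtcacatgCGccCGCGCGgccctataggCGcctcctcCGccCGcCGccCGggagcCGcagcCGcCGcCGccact
RPL36: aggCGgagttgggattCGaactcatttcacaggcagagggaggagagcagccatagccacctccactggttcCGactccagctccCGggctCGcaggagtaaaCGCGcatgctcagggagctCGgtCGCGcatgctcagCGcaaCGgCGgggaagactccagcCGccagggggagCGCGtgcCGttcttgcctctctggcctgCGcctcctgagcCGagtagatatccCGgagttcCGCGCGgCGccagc
MRPL54: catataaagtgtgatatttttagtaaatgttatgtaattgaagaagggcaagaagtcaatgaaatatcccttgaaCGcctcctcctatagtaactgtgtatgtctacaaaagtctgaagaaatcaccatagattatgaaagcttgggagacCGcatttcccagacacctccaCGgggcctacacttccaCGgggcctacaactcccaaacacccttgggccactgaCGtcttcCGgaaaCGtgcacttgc
These stretches hold 0 CpG in KRT10, 7 in MRPL54, 19 in FOSB, 21 in POLR2A, 24 in RPL36 and 30 in ENO2. The GC content runs from 34.8% in KRT10 to 74.0% in ENO2. For comparison, ADH1C, an alcohol dehydrogenase (chr4:99352747-99352996, minus strand), and CGA, the alpha subunit shared by glycoprotein hormones (chr6:87095107-87095356, minus strand), stand for genes in the B2/B3 cluster. Their promoters were picked after the values were seen, because the CpG number of their 300-base promoter entries lies at the median of that cluster.
ADH1C: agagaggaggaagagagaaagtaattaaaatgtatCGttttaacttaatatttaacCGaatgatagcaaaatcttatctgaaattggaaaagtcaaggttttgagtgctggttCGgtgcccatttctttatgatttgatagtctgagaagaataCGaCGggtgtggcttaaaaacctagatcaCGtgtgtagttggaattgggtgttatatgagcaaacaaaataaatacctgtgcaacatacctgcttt
CGA: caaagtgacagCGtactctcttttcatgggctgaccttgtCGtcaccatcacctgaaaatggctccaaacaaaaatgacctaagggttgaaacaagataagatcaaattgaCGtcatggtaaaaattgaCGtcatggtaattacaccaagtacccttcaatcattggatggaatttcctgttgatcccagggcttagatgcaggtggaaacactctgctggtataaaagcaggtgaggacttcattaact
They hold 6 and 4 CpG in the same 250 bases. The keratin promoter thus has fewer CpG than either B2/B3 promoter although its bin is named A1.

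Along the genome, A1 was concentrated on a few short, gene-rich chromosomes. It made up 44.3% of the clustered bins of chromosome 22, 41.8% of chromosome 19 and 473 of the 1352 of chromosome 17, followed by 15.5% of chromosome 20 and 15.2% of chromosome 16. Chromosomes 17, 19 and 22 together held 35.8% of all A1 bins and 6.46% of all clustered bins. At the other end, chromosome 18 had no A1 bin among 1428 clustered bins, chromosome 8 had 29 (1.08%) and chromosome 5 had 38 (1.15%).

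By arm, the share ran from 0 to 59.5% over the 38 arms with at least 100 clustered bins, with a median of 4.92%. The highest shares were 59.5% on 19p, 44.3% on 22q and 35.7% on 17q, followed by 33.2% on 17p, 28.2% on 19q and 23.9% on 20q. Only 12 arms exceeded 10%. The arms 4q, 6q, 10p, 18p and 18q, with 6897 clustered bins between them, held none. Arms of one chromosome could differ: 4p had 4.88% and 4q none, 6p had 12.3% and 6q none, and 11q had 13.3% against 0.391% on 11p. On 4p all 45 A1 bins lay in the outer part of the arm, nearer its end than its centromere.

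**Figure D1:**
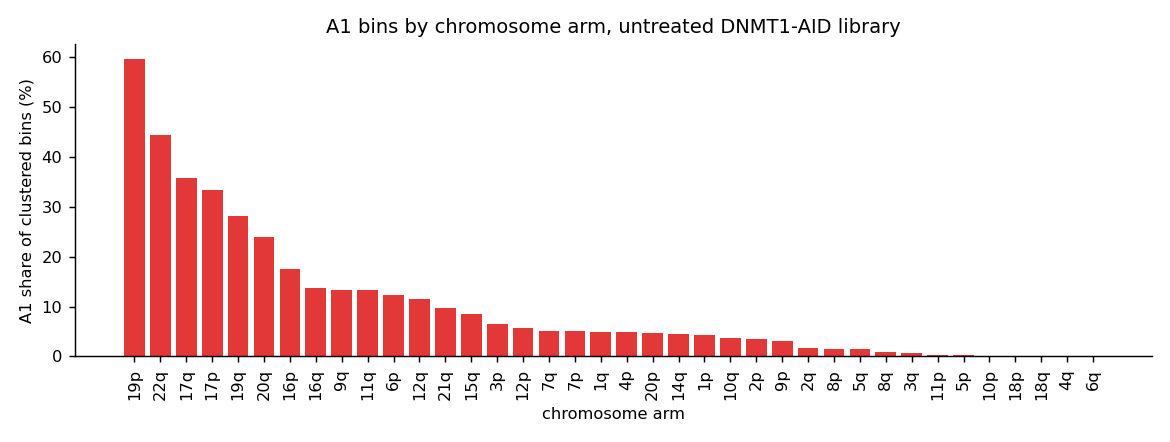
A1 bins as a percentage of clustered bins (vertical axis) for each of the 38 chromosome arms with at least 100 clustered bins (horizontal axis), 1 untreated DNMT1-AID library. The bars fall from 59.5% on 19p to 0 on 10p, 18p, 18q, 4q and 6q, and 12 arms lie above 10%.

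Measured in megabases, A1 bins lay nearer the arm ends than A2, V+VI and B2/B3 bins did. Of A1 bins, 23.7% lay within 5 Mb of the end of their arm, against 6.03% of A2, 4.81% of V+VI and 3.86% of B2/B3 bins. The small B4 cluster came near A1, with 18.8%. The median distance to the arm end was 18.2 Mb for A1, 21.3 Mb for B4 and 33.9 Mb for A2. Relative to arm length, from 0 at the centromere to 1 at the end, A1 stood less apart from A2 and V+VI. The median position was 0.626 for A1, 0.537 for A2, 0.549 for V+VI, 0.477 for B2/B3 and 0.354 for B4. The outer part of the arm held 56.8% of A1, 54.2% of A2 and 54.8% of V+VI bins. A1 share was higher on shorter arms (r = -0.43), and the part of arm length in these distances was not tested. When each arm was divided into 10 equal parts from centromere to end, A1 made up 17.3% of the clustered bins in the outermost part and 1.11% in the innermost. Without chromosomes 17, 19 and 22 the outermost part still held 14.1% and the innermost 0.364%. Between these, the profile had no steady slope: A1 was 8.66% and 8.89% in parts 2 and 3 from the centromere and between 3.31% and 7.70% in parts 4 to 9.

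The terminal position was not shared by every arm. All A1 bins of 9q (179 bins), 5q (35 bins), 21q (59 bins) and 8q (18 bins) lay in the outer part of the arm, whereas all 112 of 6p and all 90 of 7q lay in the inner part. On 11q, 9.80% of the 204 A1 bins lay in the outer part. The A1 bins of 3p, 116 in number, centred on the middle of the arm, at a median relative position of 0.470 on a scale from 0 at the centromere to 1 at the end.

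Adjacent A1 bins formed 458 runs with a median length of 2 bins and a mean of 7.12. Single bins made up 175 of the runs (38.2%) but 5.37% of A1 bins. The 50 runs of at least 20 bins made up 10.9% of the runs and 53.6% of the bins, and the 45 longest held 50% of all A1. For A2 the median run was also 2 bins, with a longest run of 6400 kb against 4650 kb in A1.

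**Figure D2:**
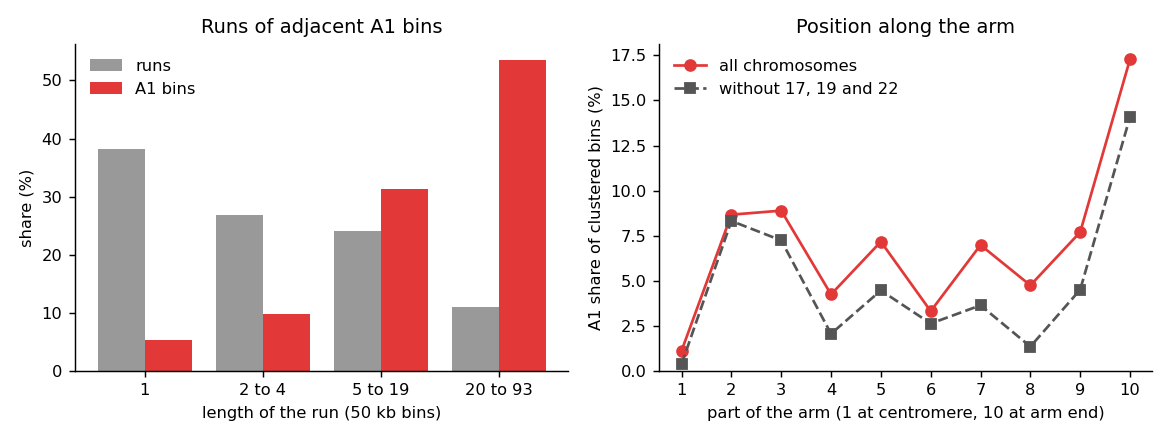
Left, runs of adjacent A1 bins by length in 50 kb bins (horizontal axis), as a percentage of the 458 runs (grey) and of the 3261 A1 bins (red). Right, A1 as a percentage of clustered bins in each of 10 equal parts of the arms, for all chromosomes (red circles) and without chromosomes 17, 19 and 22 (grey squares); runs of 20 or more bins hold 53.6% of A1 and the outermost part reaches 17.3%.

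The 5 longest runs held between 48 and 157 protein-coding genes each. The longest spanned 93 bins (4650 kb) at chr19:2250001-6900000 with 124 protein-coding genes, counted by the bin of their leftmost coordinate, and among them were the ceramidase ACER1, the mitochondrial AlkB family member ALKBH7 and the adhesion receptor ADGRE1. The run of 80 bins at chr11:63700001-67700000 held 157 genes, among them the muscle protein ACTN3 and the autophagy protein ATG2A. The run of 74 bins at chr3:46900001-50600000 held 96 genes, such as the glycine cleavage enzyme AMT, the checkpoint partner ATRIP and the synaptic protein BSN. At chr20:34100001-37100000, 60 bins held 48 genes, among them AHCY, which hydrolyses the product left by methyl transfer, and the pigment signal ASIP. At chr19:44900001-47900000, 60 bins held 90 genes, among them the lipid carriers APOE, APOC1, APOC2 and APOC4 and the apoptosis inducer BBC3. Gene density per bin in these runs lay between 0.800 on chromosome 20 and 1.96 on chromosome 11, so the chromosome 20 run was below the A1 average of 1.28 and the chromosome 11 run above it.

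A1 was bounded by A2 almost without exception. Of the 916 ends of runs, 649 met an A2 bin and 265 a bin without cluster, which leaves 2 others. The A1 bin chr5:179600001-179650000, which holds HNRNPH1, a splicing regulator, lay between A2 and V+VI. The run of 2 bins at chr12:132700001-132800000, with ANKLE2, GOLGA3 and PGAM5, met B4. No A1 bin touched B2/B3, and no single A1 bin lay between B clusters. A2 thus made up 99.7% of the 651 clustered neighbours of A1, whereas of the unlike neighbours of A2 26.4% were A1 and 72.2% V+VI. Since the bins were clustered by contact, the order A1, A2, V+VI, B2/B3 along the chromosome describes the clustering.

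Between successive A1 runs of an arm lay 425 gaps with a median of 2 bins (100 kb). A2 alone filled 244 of the gaps and bins without cluster 110, and 48 held V+VI, B2/B3 or B4. Only 57 gaps were longer than 20 bins. Bridging gaps of up to 2 bins without cluster joined the 458 runs into 380, with a longest run of 127 bins.

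The deposited table also gives the cluster code of every bin for 17 numbers of clusters between 3 and 64. With 9 clusters, the A1 bins are exactly the 3261 bins of code 8. With 5 clusters, all A1 bins have code 4, which holds 3883 bins, 84.0% of them A1 and the other 622 A2. With 3 clusters the code that holds A1 covers 9482 bins and is 34.4% A1. Each of the 17 order columns of the table sorts the bins by code and adds nothing further.

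At 7 or fewer clusters and at 9 and 10 the A1 bins stayed in 1 code, and with 8 clusters 1 bin left it. From 11 clusters on, A1 was divided: the code with most A1 bins held 92.2% of them at 11, 79.7% at 13 and 49.2% at 20. At 20 clusters, 3 codes with at least 100 A1 bins shared it, code 17 with 585, code 18 with 1070 and code 19 with 1604.

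The A1 bins of these finer codes differed in gene density, a measure that the clustering did not use. A1 made up 23.6% of code 17, 54.1% of code 18 and 100% of code 19, and only A1 bins are counted here. Those of code 17 had 0.779 protein-coding genes per bin, those of code 18 had 1.17 and those of code 19 had 1.54. On the 11 chromosomes with at least 10 bins of each code, code 19 exceeded code 17 on 11 and code 18 on 9. The A1 bins also differed in place within runs: 41.5% of those in code 17, 30.1% in code 18 and 10.8% in code 19 lay at the edge of a run. Those of code 18 lay nearer the centromeres, with a median relative position of 0.429 against 0.706 for code 19. At 64 clusters the gradient widened to 0.781 genes per bin in the A1 bins of code 60, which is 65.4% A1, and 2.05 in code 63, which is 100% A1. Code 63, with 590 bins, lay farthest out, at a median relative position of 0.813, and 88.1% of its bins held the start of a gene. Chromosomes 17, 19 and 22 held 13.6% of the A1 bins of code 60 and 49.2% of those of code 63. These codes were not compared within chromosomes, so the part of the chromosomes in their difference was not tested.

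The gene content of A1 was the highest of the large clusters. A1 held 4180 of the 15931 protein-coding genes placed in clustered bins (26.2%) in 7.08% of the bins. This gives 1.28 genes per bin, against 0.488 in A2, 0.307 in V+VI, 0.0858 in B2/B3 and 0.915 in the small B4 cluster of 282 bins. At least 1 gene was placed in 69.6% of A1 bins and in 36.9% of A2 bins. Genes covered 67.5% of the bases of A1 and 57.3% of A2.

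Within chromosomes the difference had the same direction. A1 had more genes per bin than A2 on 20 of 20 chromosomes, with a mean of 1.20 (SD 0.21, n = 20 chromosomes) against 0.533 (SD 0.253). The ratio ran from 1.07 on chromosome 19, where A2 had 1.52 genes per bin and A1 had 1.63, to 3.49 on chromosome 9, with a median of 2.52. Chromosomes of 1 clustering are not replicates of a condition, so these counts describe the untreated library. Genes were also shorter in A1, with a median length of 14652 bp against 29961 bp in A2, 40326 bp in V+VI and 44682 bp in B2/B3. The median was shorter in A1 than in A2 on 19 of 20 chromosomes. Chromosome 19 was the exception, with 13774 bp in A1 and 10860 bp in A2.

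**Figure D3:**
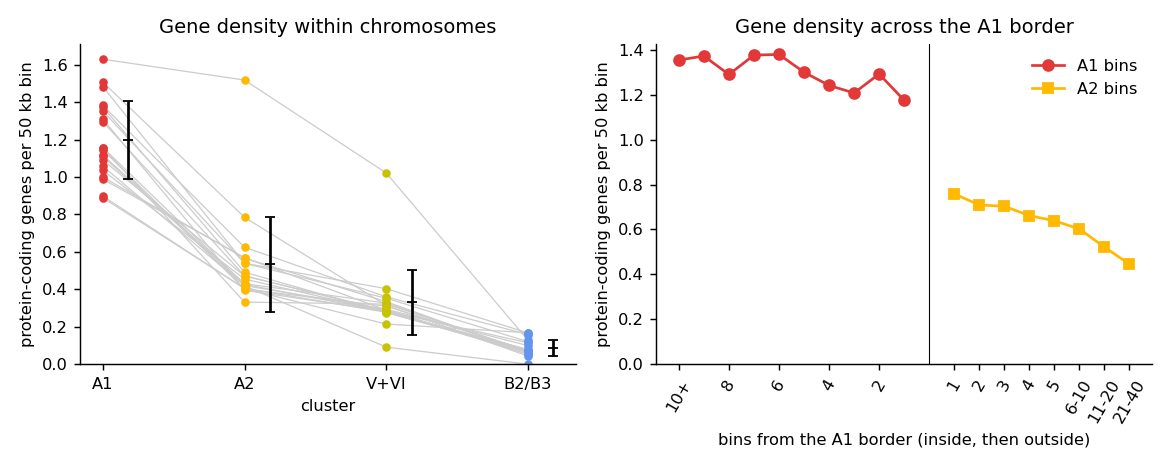
Left, protein-coding genes per 50 kb bin (vertical axis) in the 4 large clusters, 1 point per chromosome with A1 (n = 20), grey lines joining the values of a chromosome and black bars the mean and SD. Right, the same density against the distance in bins from the border of A1 runs, inside (red) and for A2 bins outside (yellow); A1 is above A2 on all 20 chromosomes, and density drops from 1.18 to 0.758 at the border.

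Gene density did not fall in a single step to the level of A2 as a whole at the border of A1 runs. It was 1.35 genes per bin at 10 or more bins inside a run and 1.18 in the outermost A1 bin. In A2 it was 0.758 in the bin next to A1, 0.639 at 5 bins, 0.521 at 11 to 20 bins and 0.427 beyond 100 bins. A2 within 2 bins of A1 exceeded A2 more than 20 bins away on 14 of 17 chromosomes with at least 10 bins of each kind. The inner A1 bins exceeded the near A2 bins on 17 of 17. The 622 A2 bins that share the A1 code at 5 clusters stood between the clusters as well, with 1.01 genes per bin against 0.460 in other A2, and 43.4% of them touched A1 against 2.34% of other A2.

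The densest A1 bins were not always in long runs. The bin chr9:137200001-137250000 held 9 genes in a run of 3 bins, among them TUBB4B, a beta tubulin, SLC34A3, a renal phosphate transporter, and NDOR1, an oxidoreductase. The bin chr16:1950001-2000000 held 8 in a run of 2, among them RPS2 of the small ribosomal subunit, NDUFB10 of respiratory complex I and GFER, a mitochondrial sulfhydryl oxidase. In longer runs lay 3 more bins with 8 genes each: chr11:64200001-64250000 with VEGFB, FERMT3 and FKBP2, chr16:67150001-67200000 with E2F4, HSF4 and TRADD, and chr17:7400001-7450000 with NLGN2, CHRNB1 and FGF11. Bins with 5 or more genes made up 1.96% of A1 (64 bins) and 0.273% of A2 (33 bins). Conversely, 194 A1 bins (5.95%) overlapped no protein-coding gene, against 22.9% of A2 and 62.7% of B2/B3 bins.

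Small RNA genes followed the protein-coding genes more closely than long noncoding RNA genes did. A1 held 361 of 1472 clustered miRNA genes (24.5%), 75 of 295 tRNA genes (25.4%) and 178 of 930 snoRNA genes (19.1%). It held 1619 of 14532 lncRNA genes (11.1%) and 1019 of 10881 pseudogenes (9.36%). Per megabase, A1 had 2.21 miRNA genes against 0.883 in A2, and 6.25 pseudogenes, the same to 3 digits as A2. Many of the small RNA genes lie inside host genes or in arrays, so they are not independent of one another or of the protein-coding genes.

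Promoters in A1 differed little from those in A2 and much from those in B2/B3. A promoter entry of 300 bases, 250 before and 50 after the start, was found for 3281 of the 4180 genes in A1 and 12722 of the 15931 clustered genes. The median GC content was 65.7% in A1, 63.7% in A2 and 49.7% in B2/B3, and the median number of CpG was 25, 24 and 6. Promoters with at least 50% GC and an observed over expected CpG ratio of at least 0.6 made up 72.3% in A1, 68.0% in A2 and 35.8% in B2/B3. The A1 share exceeded that of A2 on 13 of the 19 chromosomes compared, with means of 72.6% (SD 8.53) and 68.9% (SD 7.19). The SD is the spread between chromosomes and not that of the difference within them. Median GC content was higher in A1 than in A2 on 16 of the 19, and the median number of CpG on 14, with 1 equal. Promoters of chromosome 8 were not analysed here. Promoters with 3 or fewer CpG, like that of KRT10, made up 5.52% of A1, 10.5% of A2 and 40.2% of B2/B3 promoters.

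Of 6 motifs searched on both strands, the GC box GGGCGG, the core that SP and KLF factors bind, was the most frequent in A1. It occurred in 69.8% of A1 promoters, 61.5% of A2 and 33.1% of B2/B3, and in 59.9% of all clustered promoters. TATAAA, the TATA box, went the other way, with 6.10% in A1, 8.25% in A2, 21.3% in B2/B3 and 9.13% of all. CCAAT, the CCAAT box, occurred in 36.7% of A1 and 36.0% of all promoters. Less frequent were the E-box CACGTG (9.94% of A1, 8.84% of all), the ETS motif CCGGAAGT (7.77% and 6.52%) and the CRE TGACGTCA (2.59% and 2.61%). GC boxes contain a CpG, so their share moves with CpG density, and a match is a description and not a bound site.

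Of 20 gene lists, several with housekeeping or rapid-response functions lay in A1 more often than the 26.2% of all clustered genes. Heat shock and immediate early genes, which cells induce within minutes of stress or growth signals, had 13 of 22 members in A1 (59.1%). These lay in 11 runs on 7 chromosomes, among them FOSL1 in the 80-bin run of 11q, FOSB in a 60-bin run of 19q, and JUND and KLF2 in a 54-bin run of 19p. Cytosolic ribosomal proteins had 34 of 70 (48.6%), spread over 33 bins on 13 chromosomes, such as RPL36, FAU and RPL12. Mitochondrial ribosomal proteins had 26 of 67 (38.8%), such as MRPL54, MRPL11, MRPL49 and MRPL34.

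RNA polymerase II subunits had 5 of 10 in A1 and the other 5 in A2. The 5 were POLR2A, the catalytic subunit, and POLR2E, POLR2F, POLR2G and POLR2H. Glycolytic enzymes had 8 of 16, of which GAPDH, TPI1 and ENO2 shared a 24-bin run on 12p. PKM, the pyruvate kinase at the end of the pathway, was placed in A2 by its leftmost coordinate, chr15:72199029. Most of the gene, however, lies in the next bin, chr15:72200001-72250000, which is A1. With genes placed by their start site, 10 of 17 glycolytic enzymes lay in A1. Splicing factors and speckle proteins had 17 of 45 (37.8%), such as SF3B2, SNRPD2, SRSF2 and PRPF40B. Mediator had 10 of 27 (37.0%), such as MED1, MED11, MED24 and MED26, and the proteasome had 11 of 32 (34.4%), such as PSMB6, PSMD3, PSMD9 and PSMB10.

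For some of these lists, part of the share goes with the chromosomes on which the genes lie. Every member can be given the A1 share of all clustered genes of its own chromosome. The mean is then 26.8% for heat shock and immediate early genes and 25.5% for mitochondrial ribosomal proteins, near the 26.2% of all clustered genes. It is 28.5% for cytosolic ribosomal proteins, 35.5% for RNA polymerase II subunits and 30.5% for glycolytic enzymes. For splicing factors it is 29.6%, for the proteasome 29.9% and for Mediator 34.6%. The Mediator share of 37.0% thus lay close to that of its chromosomes. The list of colon epithelium genes and Wnt targets, 10 of 28 or 35.7%, lay close to its 33.7% as well. Its members in A1 included the epithelial keratins KRT8, KRT18 and KRT19 and the tight junction protein CLDN7.

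Keratins stood at the upper end of the order. All 44 keratin genes in a clustered bin lay in A1, where their chromosomes 12 and 17 gave a mean of 45.2%. They are tandem copies at 2 loci and occupy 23 bins, so they count as few independent places. On 12q, 27 keratins, all of type II except KRT18, lay in 15 bins of the run chr12:51900001-53700000. On 17q, 7 keratins from KRT222 to KRT10 lay in the run chr17:38850001-40850000 and 10 from KRT32 to KRT17 in the run chr17:41450001-43200000. A further 11 keratins between these 2 runs lay in bins without cluster. The 12q array includes KRT8 and KRT18 of simple epithelia next to the epidermal KRT1, KRT2 and KRT5 and the hair keratins KRT81 to KRT86.

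Of the other tandem families, keratin-associated proteins had 16 of 59 in A1 (27.1%), near the 26.2% of all clustered genes. The 16 lay in 4 bins of the run chr21:44350001-45600000, while 33 lay in B2/B3. HOX genes had 3 of 35 (8.57%): HOXB7, HOXB8 and HOXB9 lay in 1 bin of the 2-bin run chr17:48600001-48700000. The other 7 clustered HOXB genes were placed in A2 within 100 kb of A1, counted in whole bins from their leftmost coordinate. Of these, HOXB6 (chr17:48595751-48604986) extends into that A1 run. On the same count, the HOXC genes lay in A2 at 250 to 350 kb from A1, and the HOXA genes at 16900 kb or more. Replication-dependent histones had 2 of 58, H2AC25 and H2BC26 on 1q, with 50 in A2. The 58 histone genes occupy 12 bins. Olfactory receptors had 7 of 251, among them OR1F1, OR2C1, OR2AE1 and OR13J1, with 173 in B2/B3. Their own chromosomes gave a mean of 14.5% for the histones, 28.6% for the olfactory receptors and 34.3% for the HOX genes.

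Zinc finger genes of chromosome 19 had 16 of 240 in A1 (6.67%), such as ZNF554, ZNF555, ZNF556 and ZNF57 in the longest run, and 121 in B4, on a chromosome where 52.2% of clustered genes lay in A1. Clustered protocadherins had 0 of 53, with 41 in B4. They occupy 13 bins of chromosome 5, where only 5.32% of clustered genes lay in A1. Classical cadherins and contactins, long genes of cell adhesion, had 0 of 21, with 17 in B2/B3, where their chromosomes gave a mean of 18.2%. Voltage-gated potassium channels had 5 of 34, among them KCNH3, KCNH4 and KCNA7, where their chromosomes gave 25.7%. Germline genes, a group that methylation is known to silence in somatic cells, had 8 of 31 (25.8%), near the share of all genes, with HORMAD1, HORMAD2, TDRD9 and MOV10L1 among them.

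**Figure D4:**
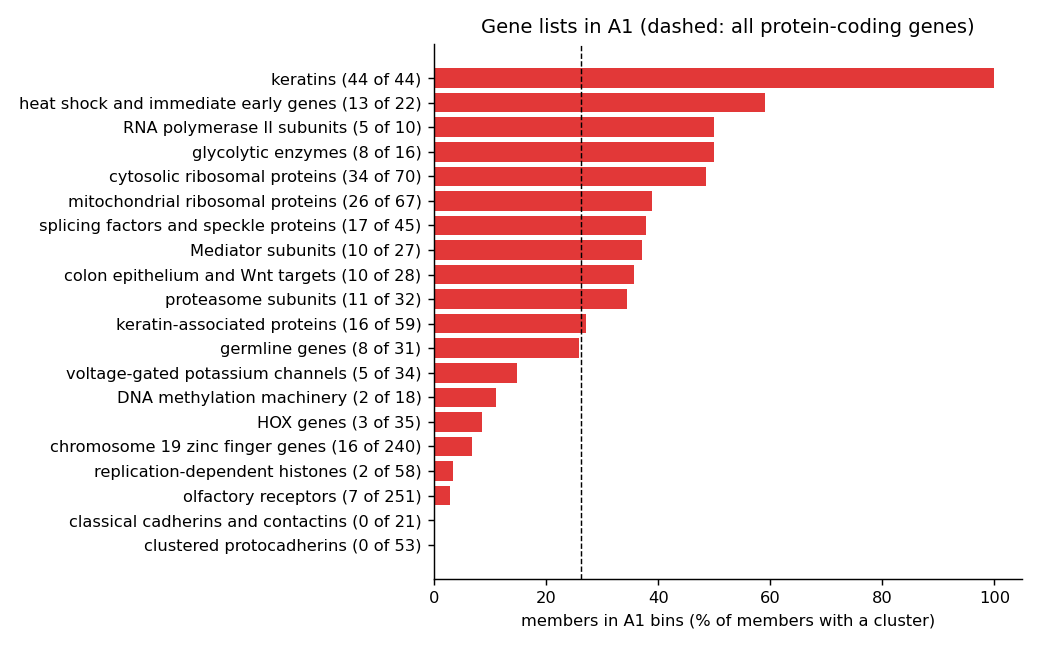
Percentage of the members of 20 gene lists that lie in A1 bins (horizontal axis), of members in clustered bins, with the counts beside each list name and a dashed line at the 26.2% of all protein-coding genes. Keratins reach 44 of 44, and clustered protocadherins and classical cadherins with contactins lie at 0.

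Of the DNA methylation machinery, 2 of 18 genes (11.1%) lay in A1, both on 19p. The share was 26.2% for all clustered genes, and the chromosomes of the list gave a mean of 23.6%. UHRF1, which brings DNMT1 to newly replicated DNA, lay in the 93-bin run, and MBD3, a subunit of the NuRD complex, in a run of 21 bins. The genes of the enzymes that the study removes lay in A2. Counted in whole bins from the bin of the leftmost coordinate, DNMT1 lay 6 bins (300 kb) from the nearest A1 bin and DNMT3B 12 bins (600 kb). DNMT3A, the other de novo enzyme, lay in A2 at 23 bins (1150 kb) on the same count. The genes themselves can end nearer to A1. The oxidising enzymes TET1 and TET3 lay in A2 and TET2 in V+VI.

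The cluster table covers the untreated DNMT1-AID library alone, so the contacts of A1 bins themselves cannot be followed through treatment. What the deposited tables allow is to set the A1 share of each arm beside the contacts within that arm in every library. The measure is the share of raw contacts within the arm, from 100 kb upward, that span 10 Mb or more. Points are arms of a library, which share depth and library preparation, so correlations over arms describe each library and carry no p.

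Arms rich in A1 tended to have a lower share of long-range contacts in every library. Over 38 arms, Pearson's r of this long-range share with A1 share was -0.56 in untreated DNMT1-AID cells (Spearman's rho -0.53) and -0.52 in untreated knockout cells. Without chromosomes 17, 19 and 22 it was -0.35 and -0.31. The lowest share of the 38 arms in untreated DNMT1-AID cells, 1.24%, was that of 18p, which holds no A1. A1 share also moved with gene density of the arm (r = 0.85) and with arm length (r = -0.43), and a short arm has less room for such contacts. The roles of A1, gene density and arm length in this relation cannot be told apart.

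On 19p, the arm with the highest A1 share, long-range contacts made up 3.75% in untreated DNMT1-AID cells (95% exact binomial interval 3.70 to 3.80), 2.49% at 4 d of auxin (2.46 to 2.52), 3.02% at 10 d (2.97 to 3.06) and 3.68% after washout (3.57 to 3.79). In knockout cells they made up 3.14% untreated (3.08 to 3.19), 2.67% at 4 d (2.62 to 2.71) and 3.22% at 10 d (3.17 to 3.27). In both genotypes the 4 d library was the lowest, and the washout interval overlapped the untreated one. The intervals cover counting error only. On 4q, an arm without A1, the share was 22.7% untreated, 20.5% at 4 d, 23.8% at 10 d and 23.6% after washout in DNMT1-AID cells. In knockout cells it was 19.3% untreated, 20.8% at 4 d and 23.5% at 10 d, so 4q was higher at 4 d than untreated where 19p was lower.

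At 4 d of auxin, the more A1 an arm held, the lower was its long-range share relative to the untreated library. In DNMT1-AID cells the log2 ratio of the long-range share to the untreated library had r = -0.92 with A1 share (rho -0.76, n = 38 arms). The 6 arms highest in A1 had a mean log2 ratio of -0.44 (SD 0.10), from -0.59 on 19p to -0.29 on 20q. The 5 arms without A1 had a mean of -0.20 (SD 0.055), from -0.26 to -0.15, so these groups at the ends of the order did not overlap. Arms between them did not keep the order throughout. With 3.14% A1, 9p was at -0.13, less low than any arm without A1, and 6p with 12.3% was at -0.35, lower than 20q. The mean over all 38 arms was -0.25 (SD 0.10). All 38 arms were lower at 4 d. The DNMT1-AID ratios share their untreated library with the clustering, and the 3 treated DNMT1-AID libraries share it with one another.

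In knockout cells, whose ratios use an untreated library that had no part in the clustering, the relation at 4 d had r = -0.83 (rho -0.68). Here the 6 arms highest in A1 had a mean of -0.092 (SD 0.083), and 5 of the 6 were lower than untreated, while the 5 arms without A1 had a mean of 0.090 (SD 0.056) and none was lower. Against the DNMT1-AID cells, the level differed while the order of the arm groups was the same.

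The relation at 4 d was not carried by chromosome 19 alone but weakened without the arms richest in A1. Without chromosome 19, r was -0.87 in DNMT1-AID and -0.73 in knockout cells, and without chromosomes 17, 19 and 22 it was -0.67 and -0.47. Among the 28 arms of 40 Mb or more it was -0.77 and -0.76. With gene density in place of A1 share, r was -0.87 and -0.70, and with arm length 0.52 and 0.28. The part of gene density in the relation was not tested.

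**Figure D5:**
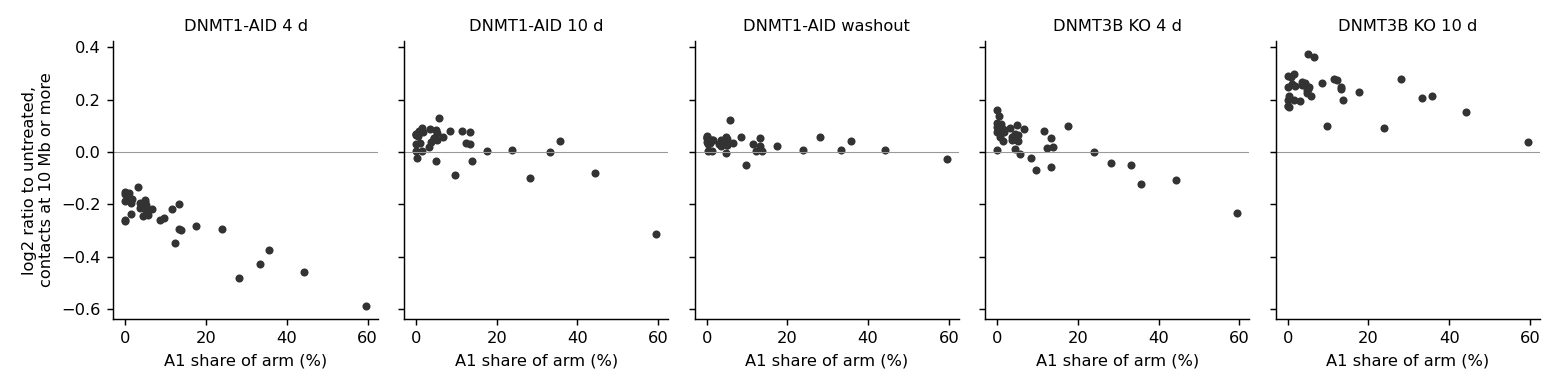
Each point is 1 of 38 chromosome arms, with the A1 share of the arm in the untreated DNMT1-AID library (horizontal axis, %) and the log2 ratio of the share of contacts at 10 Mb or more to the untreated library of the same genotype (vertical axis), 1 panel per treated library. At 4 d points fall with A1 share in both genotypes (r = -0.92 and -0.83), and at 10 d 19p lies apart from the other arms in DNMT1-AID cells.

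The later libraries did not hold the relation in the same way. At 10 d in DNMT1-AID cells r was -0.71 (rho -0.35), but -0.42 without chromosome 19 and -0.045 among arms of 40 Mb or more. When long range began at 20 Mb, r turned to 0.41, but rho was 0.19, and r was 0.15 without chromosome 19. At 10 d in knockout cells r was -0.48 (rho -0.13), and -0.0076 among arms of 40 Mb or more. From 20 Mb it was 0.31 (rho 0.16), 0.16 without chromosome 19 and -0.088 without chromosomes 17, 19 and 22. On 19p, 0.0175% of contacts within the arm spanned 20 Mb or more in untreated DNMT1-AID cells. After washout r was -0.38, and -0.093 among arms of 40 Mb or more. From 20 Mb it was -0.63, but rho was -0.088. This r was -0.30 without chromosome 19 and 0.092 without chromosomes 17, 19 and 22. For contacts at 10 Mb or more after washout, the 6 arms highest in A1 had a mean log2 ratio of 0.016 (SD 0.030). It was 0.054 (SD 0.0089) in arms without A1.

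Chromosomes rich in A1 also made more of their contacts with other chromosomes. Over 21 chromosomes, r between A1 share and the share of contacts in trans, from raw counts, lay between 0.78 and 0.82 in all 7 libraries. In untreated DNMT1-AID cells, chromosome 21, with 9.62% A1, had 47.4% in trans, above the 46.2% of chromosome 19 with 41.8% A1. Chromosome 18, without A1, had 37.9%, against 28.3% on the longer chromosome 2 with 2.18% A1. Chromosomes rich in A1 are mostly short, and the part of chromosome length in this relation was not tested. Balanced contact, the signal after matrix balancing by the authors, was 2.31 times as high between chromosomes 16, 17, 19, 20 and 22 (10 pairs) as over the other 200 pairs in untreated DNMT1-AID cells. These chromosomes were picked by A1 share, which comes from contacts of this same library, so its value partly restates the choice. The ratio was 2.20 at 4 d, 2.13 at 10 d and 2.31 after washout. In knockout cells it was 2.29 untreated, 2.27 at 4 d and 2.33 at 10 d. The chromosomes lowest in A1 were 2, 4, 5, 8 and 18. Between them the ratio was 0.644 in untreated DNMT1-AID cells, 0.665 at 4 d, 0.687 at 10 d and 0.649 after washout. In knockout cells it was 0.693 untreated, 0.695 at 4 d and 0.720 at 10 d. The 10 pairs of the high group ranged from 1.70 to 3.26 in untreated DNMT1-AID cells. From raw counts, the ratios in untreated DNMT1-AID cells were 1.95 for the high group and 0.680 for the low group. No replicate gives the error of a difference between libraries.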

How the data were processed

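Hi-C was measured in 7 DLD-1 libraries, 1 per group. Reads were mapped with BWA to hg38, per the submitters' processing notes. The clustering program, pair filters and balancing tool were not given in the sources used here. For 50 kb bins of the untreated DNMT1-AID library, the authors deposited k-means cluster names and codes (a score without unit, per the file headers). They also deposited raw contact counts and balanced signal by separation or chromosome pair, per the file headers. Members and gene lists were chosen with earlier results of these data known. Gene names and positions came from RefSeq (GRCh38.p14, the assembly of hg38). A gene was placed in the bin of its leftmost coordinate, since the gene table gives no strand and the promoter table, which does, covers only part of the genes. Adjacent A1 bins formed runs, and arms entered with at least 100 clustered bins. The placement and run code was tested on simulated bins. Named genes were, by rule, up to 8 per longest run, those of the 5 densest bins and up to 4 per list in the longest runs; other names were chosen after their values were seen. No test across features was run, since each group holds 1 library. Alternatives changed the cluster number, chromosomes, gene placement and contact range. Python 3.11.15, pandas 2.3.3 and numpy 2.4.6 were used.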

Additional observations from a re-analysis of the deposited data

How the results depend on the processing

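A1 made up 7.08% of clustered bins, 8.43% with the code that holds it at 5 clusters, 7.46% without chromosome 8 and 6.83% without bins within 1 Mb of an arm end. The share of A1 bins with a gene was 69.6%, 67.8% without chromosome 19, 94.1% with genes counted in every bin they overlap and 86.5% with all genes of the annotation; the fold of genes per bin over A2 then was 1.83 and 1.78 in place of 2.63. The correlation of A1 share with the 4 d change in DNMT1-AID cells was -0.92, -0.81 with long range from 20 Mb and -0.67 without chromosomes 17, 19 and 22, an alternative added after seeing the data. From 20 Mb it turned to 0.41 (rho 0.19) at 10 d in DNMT1-AID cells and 0.31 (rho 0.16) at 10 d in knockout cells. Without chromosome 19 these r values were 0.15 and 0.16. The cause of these changes was not tested. Arms without contacts in a range were left out of it. The number of runs was 458, 380 with short gaps bridged and 527 with the code at 5 clusters, all within 1.5 times. The share of CpG-rich promoters ran from 71.6% to 73.3%, and the share of all genes in A1 from 26.1% to 26.4%, the last with genes placed by their start site, also added after seeing the data. Of the alternative values of single lists, the gene fold and the arm correlations of the other libraries, 57 moved little, 15 moved more and 2 reversed. No paired analysis was possible because each group holds 1 library without a replicate number. With 1 library per group, differences between cultures are unknown, and the washout library, the shallowest, limits its arm values most.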
